A study of Mus musculus with 4 samples.

Results

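The nuclear genes for the subunits of the oxidative phosphorylation system were followed through single cells of the mouse olfactory epithelium (outbred CD-1 strain) on postnatal day 0, day 3, day 7 and day 21, written P0 to P21. Members were chosen by symbol alone: the Nduf genes of the A, B, C, S and V series, Sdha to Sdhd, the Uqcr genes, Cyc1, 10 named Cox genes and all Atp5 genes, without pseudogenes. This gave 77 of the 49671 gene symbols in the tables, of which 26610 had at least 1 transcript in the cells used. By complex there were 35 genes of complex I, 4 of complex II, 9 of complex III, 11 of complex IV and 15 of complex V, with Ndufa4 counted in complex IV. The symbol rule also took 3 genes that are not core subunits (Ndufa4l2, Atp5s and Atp5sl), which are described apart.

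The olfactory epithelium lines the nasal cavity and makes olfactory sensory neurons (OSNs) throughout life from basal cells. There was 1 single-cell library per age, made with the 10x Genomics 3' kit, which tags each captured transcript with a unique molecular identifier (UMI). All 4 libraries were of the same strain with no genotype or treatment named; the sources used here do not give the gate of the cell sort or the number and sex of the mice. The series title concerns neurons needed to form the olfactory map in a critical period. Because each age is 1 library, age and library cannot be told apart.

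The inner mitochondrial membrane carries an electron transport chain whose complexes I and II take electrons from NADH and succinate. Complex III passes them to cytochrome c and complex IV to oxygen, and the proton gradient built by complexes I, III and IV drives the ATP synthase, complex V. Most subunits come from nuclear genes, while a small core set is made from the mitochondrial genome, so each complex except complex II is a product of both. OSNs spend ATP on ion transport in their cilia and along an axon that reaches the olfactory bulb.

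After filtering, 2666, 3186, 1778 and 1413 cells remained at P0, P3, P7 and P21, with between 6844712 and 17410952 UMIs per library. Cells were grouped by clustering that used neither the 77 members nor any mitochondrially encoded gene, and the groups were named from marker genes. Mature-OSN-like cells numbered 346, 356, 382 and 857 in the 4 libraries, immature-OSN-like cells 523, 379, 303 and 101, and progenitor-like cells (dividing basal cells and immediate precursors) 432, 791, 223 and 73. Omp, the olfactory marker protein of mature OSNs, stood at 3784 to 6538 counts per 1e6 UMIs (CPM) in the mature class and at 94.2 to 207 in the immature class, while Gap43, a growth protein of young axons, stood at 114 to 398 and at 3782 to 4138 CPM. Within the mature class Omp was highest and Gap43 lowest at P21, so the class was not the same in makeup at each age. A pair of clusters with both markers (the Omp-and-Gap43 clusters) and a pair led by or rich in Tex15 (the Tex15 clusters) were kept out of the named classes. P0 and P3 shared 68 cell barcodes, and 91 recurred in any pair of libraries and were left out in an alternative, where the counts of members called between classes moved by at most 2.

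Summed over the 77 members, the transcripts made up 4.61%, 3.87%, 3.75% and 3.88% of UMIs from all cells, in order of age. Along the neuronal lineage the share was highest in mature-OSN-like cells, at 6.45%, 5.23%, 4.58% and 4.14% in the P0, P3, P7 and P21 libraries. Immature-OSN-like cells held 4.06%, 3.66%, 3.42% and 3.37%, and progenitor-like cells 4.17%, 3.65%, 3.58% and 3.49%. The mature class lay above both in each of the 4 libraries, by 1.59, 1.43, 1.34 and 1.23 times over the immature class and by 1.55, 1.43, 1.28 and 1.18 times over the progenitor class. Immature-OSN-like and progenitor-like cells differed by little, with ratios from 0.956 to 1.0. The Omp-and-Gap43 clusters lay between, at 5.23%, 4.66%, 4.34% and 4.04%. These shares are given as a description with no test, and their counting intervals are narrower than the symbols in the plot of shares by group.

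**Figure D1:**
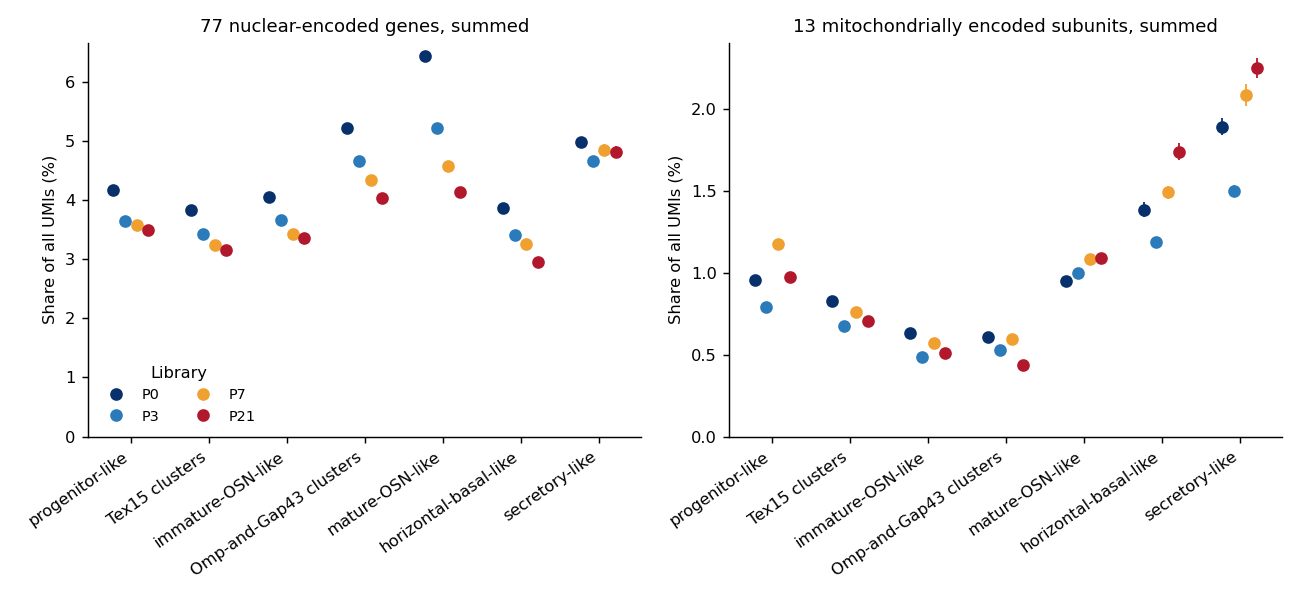
Share of all UMIs (%) taken by the 77 nuclear-encoded genes (left) and by the 13 mitochondrially encoded subunits (right) in 7 groups of cells; points are libraries, coloured by age, and bars are exact 95% Poisson intervals. In the mature-OSN-like class the nuclear share runs from 6.45% at P0 to 4.14% at P21, while the mitochondrial share stays between 0.952% and 1.09%.

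Outside the lineage, secretory-like cells (68, 79, 35 and 48 cells, led by the airway secretory genes Bpifa1 and Reg3g, and also by Ascl3, a marker of microvillar cells) held a share of 4.99%, 4.66%, 4.84% and 4.83%. Horizontal-basal-like cells, which carry the keratins Krt5 and Krt14 of the quiescent stem cell layer, held 3.87%, 3.41%, 3.27% and 2.95%, below the progenitor class of the same library in all 4. The subunits made by mitochondria did not follow this order. They took 0.952%, 0.997%, 1.09% and 1.09% of UMIs in mature-OSN-like cells, 0.629%, 0.487%, 0.572% and 0.509% in immature ones and 1.89%, 1.5%, 2.08% and 2.25% in secretory-like cells. Several of these mitochondrial genes have few or no UMIs in the tables, so the sum covers an uneven set of them. A share of UMIs cannot tell fewer member transcripts per cell from more RNA of other genes.

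The first set of comparisons asks how the members differ between classes within a library. Class sums of UMIs, 1 per library, were fitted across all genes with edgeR's quasi-likelihood test, with the library as a block and Benjamini-Hochberg adjustment over all genes tested. A gene is called higher or lower at an adjusted p under 0.05, and log2 differences are on the scale of the trimmed mean of M values (TMM) fit. The p-values measure the spread between 4 libraries of different ages. Because many genes differ between classes, each count of members is read against the share of all tested genes called in that direction. The 3 comparisons along the lineage share class sums with one another.

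From immature-OSN-like to mature-OSN-like cells, 63 of the 75 tested members rose and 0 fell, with a median log2 difference of 0.61 against -0.01 over all genes. Of all 9979 genes tested, 30.4% were higher and 29.9% lower. Every complex took part: 28 of 35 genes rose in complex I, 4 of 4 in complex II, 9 of 9 in complex III, 9 of 11 in complex IV and 12 of 14 in complex V. No member was lower at an unadjusted p under 0.05 either (0 by edgeR), and DESeq2 called 63 higher and 0 lower. This comparison depends on the scaling: the TMM factors shifted it by 0.13 to 0.21 relative to plain library totals. With library totals 56 members were higher and 2 lower (Atp5d, -0.26, and Ndufs4, -0.30), while the median over all genes moved to -0.18 and that of the members to 0.44. The 7 members that lost their call were Atp5e, Atp5f1, Sdhb, Ndufb2, Ndufa9, Ndufs6 and Ndufa11.

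From progenitor-like to immature-OSN-like cells the members divided by complex. In all, 18 of 76 were higher and 37 lower, with a median of -0.19 against 0.00 over all genes, of which 36.4% were higher and 35.3% lower. Complex V stood apart in count, with 13 of 15 genes lower and 0 higher (0 also at an unadjusted p under 0.05; median -0.39). Complex III had 6 of 9 lower and 1 higher, complex IV 6 of 11 lower and 4 higher, complex II 2 of 4 lower and 1 higher, and complex I 10 of 35 lower and 11 higher. With library totals, 20 members were higher and 30 lower. When single cells were assigned by marker gates in place of clusters, 20 were higher and 20 lower.

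Between the ends of the series, mature-OSN-like against progenitor-like cells, 48 of 76 members were higher and 8 lower, with a median of 0.33 against -0.06. Over all 10368 genes, 37.2% were higher and 40.4% lower. Complex IV had 9 of 11 genes higher and complex III 7 of 9, with 0 lower in each, and complex II 3 of 4. Complex I had 21 of 35 higher and 3 lower, among them Ndufa8 (-0.25) and Ndufs5 (-0.22). Complex V had 7 of 15 higher and 5 lower (Atp5g2, Atp5g1, Atp5e, Atp5a1 and Atp5d), and its median was 0.05. The count of 8 lower members was 4 with DESeq2 and 4 or 5 when any 1 of the 4 libraries was left out.

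**Figure D2:**
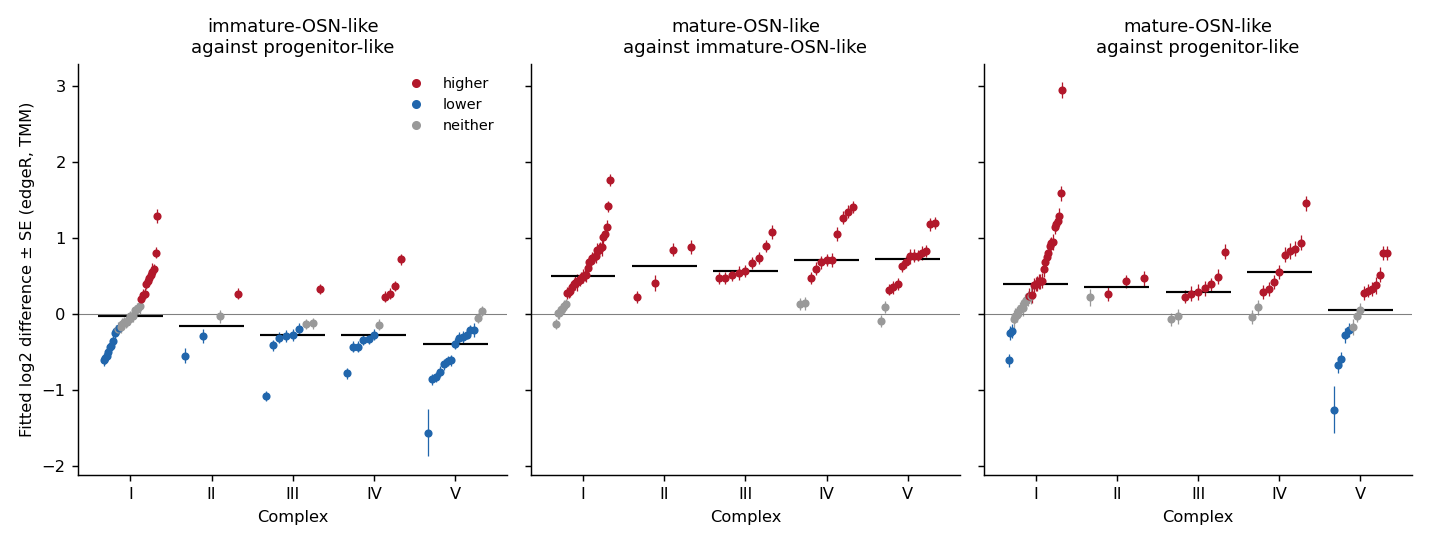
Fitted log2 difference of each member (points, bars are SE; red higher, blue lower, grey neither by edgeR's adjusted p) by complex for the 3 comparisons along the neuronal lineage; black lines are medians. In complex V the median is -0.39 from progenitor to immature cells and 0.72 from immature to mature cells, which leaves 0.05 between mature and progenitor cells.

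In complex I the member that differed most was Ndufv3 (chr17:31520115-31531331, plus strand, mm10), an accessory subunit of the NADH-binding module. Its level in progenitor-like cells was 250, 173, 210 and 182 CPM at P0, P3, P7 and P21, in immature-OSN-like cells 685, 518, 483 and 387 CPM, and in mature-OSN-like cells 1973, 1522, 1459 and 1252 CPM. The 3 classes did not overlap in any library, and the rise took place at both steps. Mature-OSN-like cells were higher than progenitor-like cells by 2.95 on the log2 scale (7.71-fold, SE 0.10, edgeR adjusted p = 3.77e-14), with 1.29 gained before and 1.76 after the immature stage. In horizontal-basal-like cells Ndufv3 stood at 318, 211, 267 and 203 CPM and in secretory-like cells at 265, 219, 282 and 282 CPM, near the progenitor level.

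Ndufa1, a small membrane-arm subunit encoded on the X chromosome, went from 290, 194, 172 and 154 CPM in progenitor-like cells to 984, 586, 482 and 418 CPM in mature-OSN-like cells. All 4 mature values exceeded all 4 progenitor values, and the fitted difference was 1.59 (SE 0.10, edgeR adjusted p = 8.25e-11). Ndufs1, the largest core subunit, was higher in mature than in progenitor cells by 0.89 (SE 0.11, edgeR adjusted p = 6.22e-07).

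Complex II, succinate dehydrogenase, is wholly nuclear-encoded and also serves the tricarboxylic acid cycle. Its flavoprotein gene Sdha was at 134, 161, 173 and 196 CPM in progenitor-like cells and 188, 199, 180 and 225 CPM in mature-OSN-like cells, a fitted difference of 0.27 (SE 0.10, edgeR adjusted p = 0.0229). Its iron-sulphur gene Sdhb was at 561, 403, 387 and 324 CPM in progenitor-like, 703, 499, 468 and 490 CPM in immature-OSN-like and 841, 525, 487 and 420 CPM in mature-OSN-like cells. Within each library Sdhb was higher in mature than in progenitor cells, although the ranges of the classes overlap across libraries, and the fitted difference was 0.43 (SE 0.09, edgeR adjusted p = 0.000386). The membrane anchors Sdhc and Sdhd fell by 0.29 and by 0.55 from progenitor to immature cells and rose by 0.85 and 0.88 from immature to mature cells. Between mature and progenitor cells Sdhc was higher by 0.47, and Sdhd differed by 0.22 (edgeR adjusted p = 0.0801).

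Complex III showed its widest movement in Uqcrh, the hinge protein that holds cytochrome c1. Uqcrh stood at 985, 962, 967 and 932 CPM in progenitor-like cells, 483, 457, 469 and 546 CPM in immature-OSN-like cells and 1037, 950, 863 and 800 CPM in mature-OSN-like cells. The immature values lay below all values of the other classes. It fell by 1.08 at the first step (SE 0.07, edgeR adjusted p = 2.89e-12) and rose by 1.08 at the second (SE 0.09, edgeR adjusted p = 1.25e-07), and the ends differed by -0.07 (edgeR adjusted p = 0.490). Cyc1, cytochrome c1 itself, took the same course with smaller steps, at -0.29 and 0.67. Uqcrq, a small subunit, rose at each step, from 896, 677, 659 and 663 CPM through 1223, 961, 889 and 787 CPM to 1871, 1300, 1078 and 931 CPM, and ended higher by 0.82 (SE 0.10, edgeR adjusted p = 9.18e-07). The core protein gene Uqcrc2 was higher in mature than in progenitor cells by 0.23.

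Complex IV, cytochrome c oxidase, had the highest median of the 5 complexes between mature and progenitor cells, at 0.55. Cox5b (chr1:36691449-36693681, plus strand), a matrix-side subunit, was at 777, 716, 720 and 662 CPM in progenitor-like cells, 1014, 946, 877 and 852 CPM in immature-OSN-like cells and 2533, 2127, 1878 and 1433 CPM in mature-OSN-like cells. The classes did not overlap, and most of the difference of 1.46 (2.75-fold, SE 0.10, edgeR adjusted p = 5.25e-10) was at the second step, 1.27 against 0.27 at the first. Ndufa4, once assigned to complex I and now placed in complex IV, went from 1908, 1275, 1366 and 1350 CPM to 4033, 2568, 2257 and 2028 CPM between progenitor-like and mature-OSN-like cells, a difference of 0.86 (SE 0.10, edgeR adjusted p = 3.31e-07). Cox4i1, the ubiquitous form of subunit 4, stood at 1543, 1478, 1512 and 1324 CPM and at 2215, 2089, 1782 and 1741 CPM in the same classes. It was higher by 0.42 (SE 0.09, edgeR adjusted p = 0.000343), nearly all of it gained by the immature stage. Cox7c did not pass the test between the ends (-0.04, edgeR adjusted p = 0.715), having fallen by 0.43 and risen by 0.47.

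In complex V the gene of the catalytic subunit was lowest in immature-OSN-like cells in each library. Atp5b, the beta subunit that carries the catalytic sites, stood at 1020, 1468, 1386 and 1475 CPM in progenitor-like cells, 604, 861, 809 and 872 CPM in immature-OSN-like cells and 1109, 1351, 1118 and 1113 CPM in mature-OSN-like cells. It fell by 0.86 (SE 0.07, edgeR adjusted p = 5.25e-11) and then rose by 0.77 (SE 0.09, edgeR adjusted p = 3.48e-06), and the mature and progenitor values overlapped (-0.17, edgeR adjusted p = 0.129). Atp5a1, the alpha subunit, went through 538, 759, 728 and 715 CPM, 399, 541, 509 and 452 CPM and 534, 645, 492 and 555 CPM, and fell by 0.28 from progenitor to mature cells (SE 0.10, edgeR adjusted p = 0.0160), with P0 on the other side of 0 at 0.01. Atp5a1 too was lowest in immature cells, except at P7, where the mature value was below the immature one.

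The membrane ring of the synthase is built from c subunits whose identical mature protein comes from 3 genes, and these genes differed in direction. Atp5g1 was at 731, 544, 549 and 535 CPM in progenitor-like cells and 560, 337, 356 and 259 CPM in mature-OSN-like cells, and fell by 0.67 (SE 0.10, edgeR adjusted p = 1.55e-05). Atp5g3 was at 272, 288, 300 and 287 CPM and at 429, 416, 347 and 294 CPM in the same classes, higher by 0.38 (SE 0.11, edgeR adjusted p = 0.00377). Per library its excess ran from 0.68 at P0 to 0.07 at P21. Atp5g2 was nearly silent, with 8 to 69 UMIs per library in progenitor-like cells and 4 to 17 in mature-OSN-like cells, and its fall of 1.26 (SE 0.31) rests on those counts. Atp5k, the small e subunit of the dimer interface, fell by 0.31 and rose by 1.2, ending higher by 0.80.

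**Figure D3:**
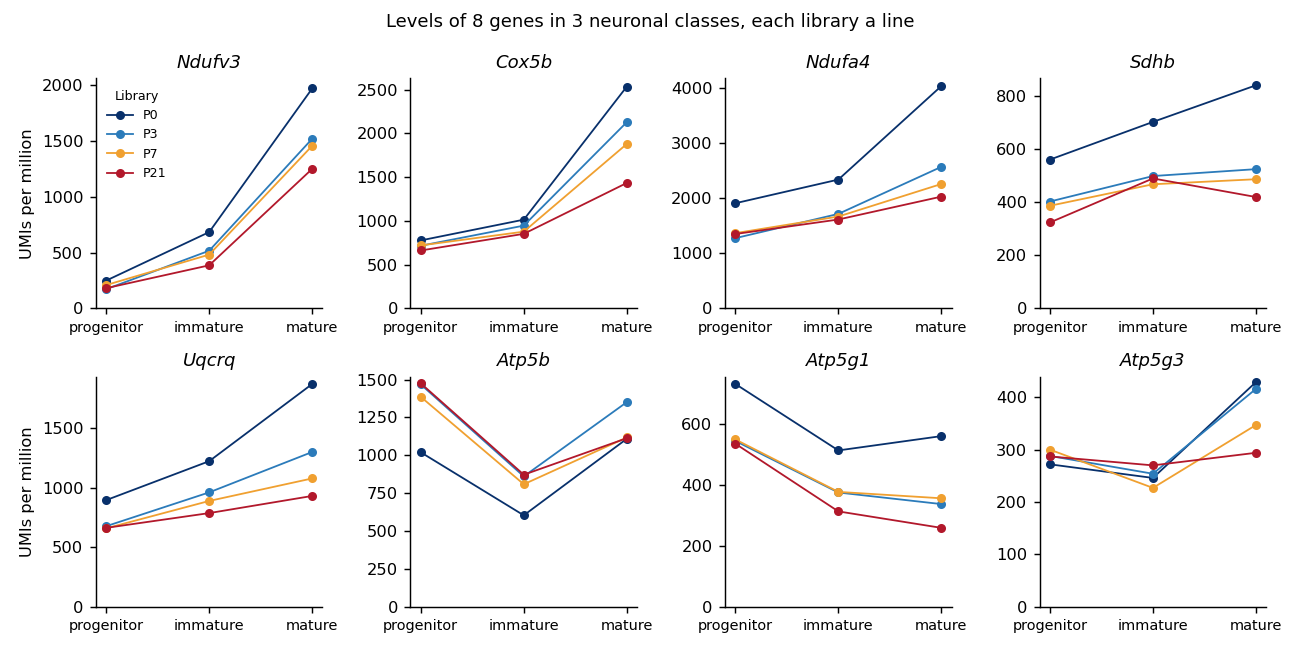
Levels (CPM) of 8 members in progenitor-like, immature-OSN-like and mature-OSN-like cells, each line a library. Ndufv3 and Cox5b climb in each library, and Atp5b dips in immature cells to between 604 and 872 CPM. Atp5g1 lies above Atp5g3 in progenitor-like cells, and these genes lie closer together in mature-OSN-like cells.

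Of the 3 genes outside the complexes, Atp5s, a factor linked to the synthase, was low but higher in mature-OSN-like cells, at 34.2, 34.5, 29.9 and 33.4 CPM against 5.31, 7.32, 9.01 and 10.5 CPM in progenitor-like cells (2.13, SE 0.22, edgeR adjusted p = 8.16e-08). Atp5sl, which has since been renamed as an assembly factor of complex I, did not differ (0.01, edgeR adjusted p = 0.991). Ndufa4l2, a paralogue of Ndufa4 known for its induction by low oxygen, was listed at 0 to 2 UMIs per library in mature-OSN-like cells. It reached 1597, 1099, 2648 and 1550 CPM in the few mural-like cells (Rgs5- and Acta2-rich vessel wall cells), where 26, 77, 12 and 8 cells were sampled.

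Horizontal-basal-like cells, numbering 115, 254, 97 and 84, were set against the dividing progenitor class to compare the quiescent and the cycling basal layers. Here 17 of 74 members were higher and 20 lower (median -0.10 against -0.01), and 30% and 30.2% of all genes were called in these directions, so the member counts were at or below the background. The higher members included Ndufa11 (0.88), Ndufa6 (0.81) and Ndufa1 (0.68) of complex I. The lower ones included Cox7a2 (-0.65), Ndufa4 (-0.51) and Atp5b (-0.48). Ndufa4 was at 1106, 903, 1027 and 779 CPM, below the progenitor value of each library. The class was drawn from different clusters at the ends of the series: cluster 12 held 82 of its 115 cells at P0 and cluster 18 held 65 of its 84 at P21. Without the P3 library 12 members were lower, and without a filter on low counts 6 were higher and 34 lower.

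The second question was how the members differ between ages within a class. With 1 library per age no test is possible; each ratio of CPM is given with a 95% interval (exact, binomial, conditional on the sum) for counting error only, and a member is counted as higher or lower past 1.5-fold. A gene was measured with a mean of at least 20 CPM and at least 40 UMIs over both libraries. In mature-OSN-like cells the summed members were at 0.642 of their P0 share at P21 (interval 0.636 to 0.647). Of 75 measured members, 38 were lower past 1.5-fold and 1 higher, against 8.94% and 12.8% of all 5997 measured genes. In all, 67 of the 75 had a ratio below 1, and the median log2 change was -0.57 against 0.05 over all genes.

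By complex the summed ratio in mature-OSN-like cells was 0.642 for complex I, 0.687 for complex II, 0.603 for complex III, 0.629 for complex IV and 0.678 for complex V. The members lower past 1.5-fold were 19 of 35 in complex I, 2 of 4 in complex II, 6 of 9 in complex III, 6 of 11 in complex IV and 5 of 14 in complex V. The lowest ratios were those of Atp5k (0.415, interval 0.390 to 0.443), Ndufa1 (0.425, 0.395 to 0.457), Ndufb8 (0.462, 0.437 to 0.489) and Atp5g1 (0.463, 0.421 to 0.510). Sdhb stood at 0.50 (0.463 to 0.539) and Ndufa4 at 0.503 (0.486 to 0.521) of their P0 level.

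Some members, among them Sdha, Atp5a1 and Atp5b, did not have a lower ratio. Sdha had a ratio of 1.19 (1.04 to 1.38), Sdhc 1.12 (0.962 to 1.31), Ndufs1 1.04 (0.887 to 1.23), Atp5a1 1.04 (0.955 to 1.13) and Atp5b 1.0 (0.946 to 1.07). Of these, the interval lay above 1 in Sdha alone. Within complex II the iron-sulphur gene Sdhb and the flavoprotein gene Sdha therefore went apart, with intervals that do not meet. The single higher call was Atp5sl, at 1.52 (0.937 to 2.58), on 21 UMIs at P0 and 87 at P21. Just inside the limit were Ndufa9 (0.664) and Cyc1 (0.665), and just outside it Atp5f1 (0.667) and Ndufb10 (0.683).

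**Figure D4:**
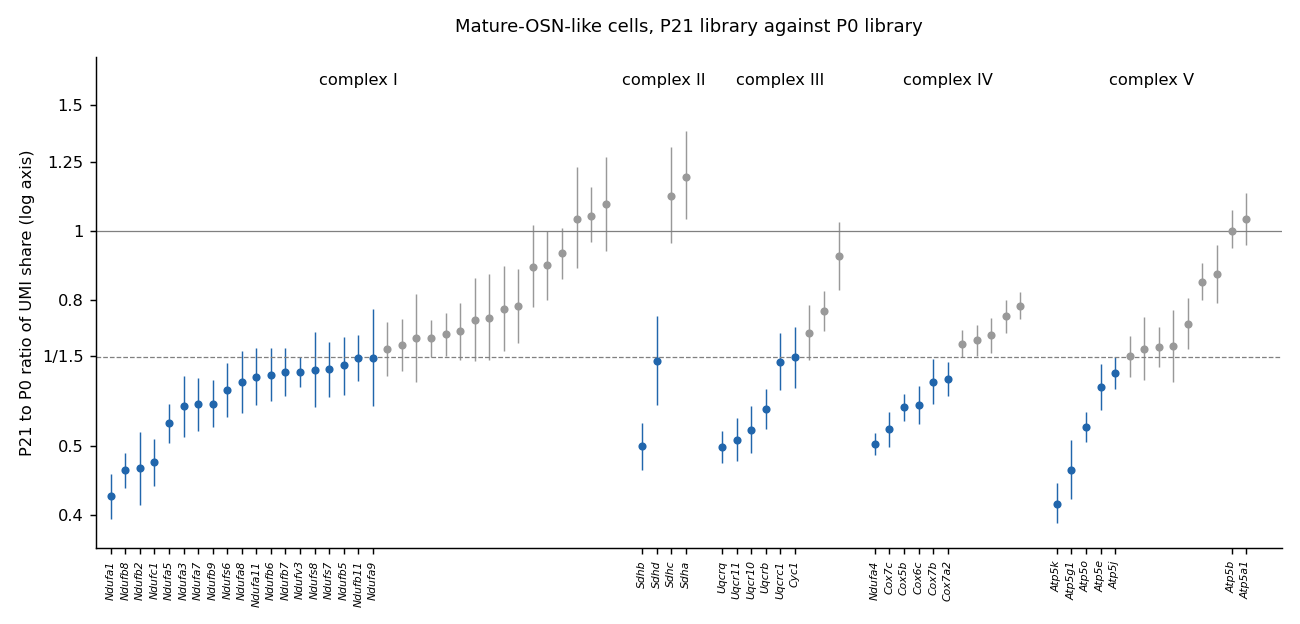
P21 to P0 ratio of UMI share (log axis) of each measured subunit in mature-OSN-like cells, by complex, with 95% counting intervals; blue points are lower past 1.5-fold, the dashed line marks that limit, and names are given for the blue points and for Sdha, Sdhc, Atp5a1 and Atp5b. Most genes of complexes I, III, IV and V and 2 of the 4 of complex II lie below 1, down to 0.415 for Atp5k, while Sdha, Atp5a1 and Atp5b lie at or above 1.

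The share was lower at each later age, as given above. With P3 as the early library the ratio of the sums was 0.791 and 2 of 75 members were lower, and with P7 it was 0.903 and 0 were lower, where 8.13% of all genes were lower in either case. The lower share at P21 was found in each mature cluster taken alone: cluster 0, led by S100a5, gave 0.611 with 43 of 75 members lower (10.5% of all genes), cluster 6, rich in Nqo1, gave 0.684 with 29 of 74 lower (9.53%), and cluster 16, a cluster of low depth (median 1813 UMIs per cell), gave 0.438 with 54 of 59 lower (27.9% of 939 genes). When cells were assigned by marker gates, 24 members were lower (9.51% of all genes) and the ratio was 0.689. Without the low-depth cluster 38 members were lower.

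The summed members had a ratio below 1 in each of the other classes. In immature-OSN-like cells the summed ratio was 0.830 (0.817 to 0.843), and 9 of 74 members were lower and 2 higher, where 7.43% and 11.4% of all genes were. In progenitor-like cells it was 0.838 (0.826 to 0.851), with 9 of 74 lower and 1 higher, against 8.70% and 10.5%. In horizontal-basal-like cells it was 0.764 (0.741 to 0.787), with 19 of 72 lower and 0 higher, against 23.3% and 13% of 2059 genes, so the lower count was near the background. With P3 or P7 as the early library 3 and 1 of these members were lower. Secretory-like cells had a ratio of 0.967 (0.943 to 0.991). In classes with few cells at P21 the ratio was 0.643 (0.600 to 0.689) in fibroblast-like cells (11 cells), 0.692 (0.656 to 0.730) in leukocyte-like cells (26) and 0.685 (0.607 to 0.772) in ensheathing-glia-like cells (6). These values were as low or nearly as low as in mature-OSN-like cells. The ratio was higher in mural-like (0.789, 0.733 to 0.849, 8 cells), endothelial-like (0.823, 0.685 to 0.982, 2 cells) and sustentacular-like cells (0.914, 0.859 to 0.972, 10 cells). Over all cells outside the neuronal lineage it was 0.868 (0.856 to 0.881), but 1.02 with P3 and 1.04 with P7 as the early library. The makeup of this pool differed between P0, P3, P7 and P21. Fibroblast-like cells numbered 181, 493, 162 and 11 and secretory-like cells 68, 79, 35 and 48, so the pooled ratio mixes cell proportions with levels within classes. Among the cells outside the lineage Ndufa4l2 was lower, at 0.425 (0.284 to 0.620). In mural-like cells alone, which held 120 of its UMIs at P0 and 33 at P21, it stood at 1597 and 1550 CPM. Atp5k and Ndufc1 were lower past 1.5-fold in each of the mature, immature, progenitor and horizontal-basal-like classes. In immature-OSN-like cells Sdhc was higher, at 1.62 (1.22 to 2.14). P0 was the highest library for the summed share in 11 of the 11 groups that had 30 cells at P0 and in another library. Whether the P21 to P0 ratio differs between classes was not tested.

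Transcript length moved with the age difference. Spliced lengths were found for 74 of the 75 measured members. In mature-OSN-like cells the 36 members under 800 bases had a median log2 change of -0.66, the 20 from 800 to under 1500 bases -0.58 and the 18 of 1500 bases or more -0.25. Other genes, ribosomal protein genes left out, had medians of -0.31 (221 genes), -0.14 (900 genes) and 0.11 (4380 genes) in the same classes, so the members lay below the other genes in each. Across the 74 members Pearson's r between log2 length and log2 change was 0.50 and Spearman's rho 0.45. Across 5583 other genes they were 0.20 and 0.22. Both are given as a description of genes that share the same libraries. The part of length in the age difference was not tested. Between mature and immature cells the members' medians were 0.65, 0.63 and 0.49 in the same length classes.

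**Figure D5:**
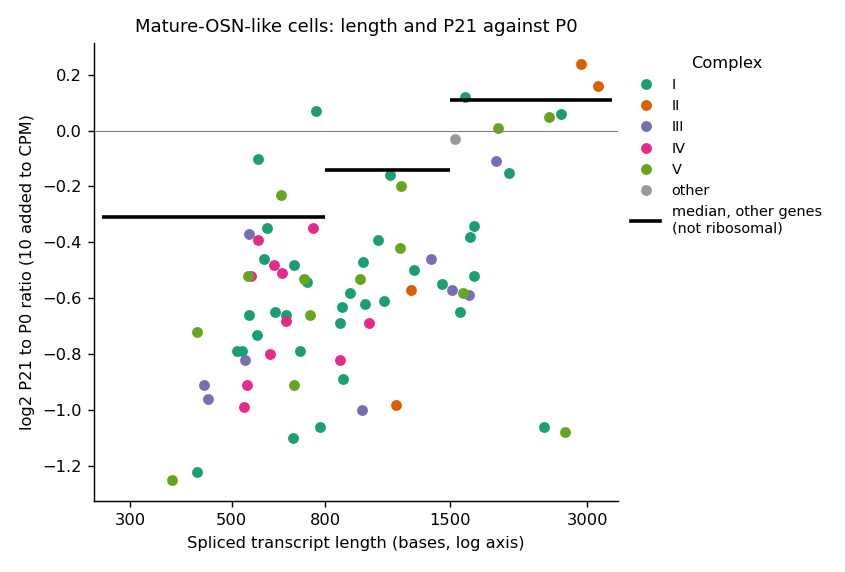
Spliced transcript length (bases, log axis) against the log2 P21 to P0 ratio (10 added to CPM) of each measured member in mature-OSN-like cells, coloured by complex, with black lines at the median of other, non-ribosomal genes in each length class. Short members lie lower than long ones, and the black lines step from -0.31 through -0.14 to 0.11.

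The mitochondrially encoded subunits, which are assembled with these members, had another course. From progenitor-like to immature-OSN-like cells 8 of 10 were lower, against 35.3% of all genes. From immature-OSN-like to mature-OSN-like cells 9 of 9 were higher (median 0.97), against 30.4% of all genes. Between mature and progenitor cells 4 of 10 were higher, led by mt-Co1 (0.49), and 1 was lower (mt-Nd2, -0.22). Of all genes 37.2% were higher and 40.4% lower there. At P21 against P0 in mature-OSN-like cells 2 of 9 were higher past 1.5-fold, mt-Co3 (2.51) and mt-Atp6 (2.29), and mt-Co1 was lower (0.588). Of all measured genes 12.8% were higher and 8.94% lower. Their summed share was 0.952% at P0 and 1.09% at P21.

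Other mitochondrial and metabolic lists are given for context. Unlike the members, their genes could take part in the clustering, so their differences between classes are descriptions. The edgeR p-values printed for genes of these lists, here and below, do not account for that use. Cox6b2 is itself among the 10 leading genes of a progenitor cluster. In mature-OSN-like against progenitor-like cells, 37.2% of all genes were higher and 40.4% lower. Of 42 assembly factors tested, 15 were higher and 8 lower in the same comparison. Among these Sco2, a copper chaperone of complex IV, rose from 8.85, 10.6, 13.5 and 8.96 CPM to 90.9, 88.0, 75.2 and 83.1 CPM (3.01, SE 0.17, edgeR adjusted p = 3.22e-11). Ndufaf3, a complex I assembly factor, fell from 547, 468, 418 and 476 CPM to 162, 146, 140 and 119 CPM (-1.74). A mixed list of tissue isoforms and of associated genes that the symbol rule does not take gave 4 of 8 higher (Cox7a1, Usmg5, the cytochrome c gene Cycs and the synthase inhibitor gene Atpif1) and 3 lower (Cox4i2, Cox6b2 and Cox7a2l). The heart and muscle form Cox7a1 was higher by 1.02. Cox6b2, known as the testis form of subunit 6b, stood at 99.1, 121, 116 and 142 CPM in progenitor-like cells and at 0.267 to 1.62 CPM in mature-OSN-like cells, a few UMIs per library, while its ubiquitous counterpart Cox6b1 was higher in mature cells by 0.33.

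Of the tricarboxylic acid cycle genes, 9 of 16 were higher and 3 lower in mature-OSN-like than in progenitor-like cells. Idh3b (1.21) led them and Suclg2 was the lowest (-2.47). In the same comparison 37.2% of all genes were higher and 40.4% lower. Glycolytic genes gave 13 of 18 higher and 4 lower. Pfkp, a phosphofructokinase, was the highest of them, at 5.18. The monocarboxylate transporter gene Slc16a1 fell by 4.38 and the lactate dehydrogenase A gene Ldha by 4.26. Mitochondrial carriers and import genes gave 4 of 19 higher and 10 lower. The adenine nucleotide carrier genes went apart, with Slc25a5 at 0.90 and Slc25a4 at -1.01. The import gene Timm50 fell by 1.71. The 87 tested cytosolic ribosomal protein genes gave 86 lower and 1 higher.

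Among 10 regulators of mitochondrial biogenesis 4 were higher and 4 lower in mature-OSN-like against progenitor-like cells. Of all genes 37.2% were higher and 40.4% lower, so these counts were near the background. Ppargc1a, a coactivator of respiratory genes, was at 3.99, 4.24, 4.4 and 3.31 CPM in immature-OSN-like cells and at 39.3, 49.1, 62.5 and 39.8 CPM in mature-OSN-like cells, higher by 3.71 (SE 0.21, edgeR adjusted p = 2.59e-09). Esrra, the nuclear receptor it partners, rose from 18.2, 20.7, 24.5 and 14.9 CPM to 29.1, 48.0, 57.5 and 39.0 CPM (1.29, SE 0.16, edgeR adjusted p = 7.05e-06). Nrf1, Gabpa and Yy1, which encode transcription factors that bind promoters of respiratory genes, did not pass the test between immature and mature cells, with differences of -0.12, 0.28 and -0.13. Gabpb1, which encodes the partner of the Gabpa protein, was the lowest of the list between mature and progenitor cells, at -1.48. Also lower in that comparison were Tfb2m (-1.4), Tfam (-1.39) and Yy1 (-0.84). The higher genes there were Ppargc1a (5.4), Esrra (1.86), Ppargc1b (1.81) and Nrf1 (0.65).

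Because many members moved together between immature and mature cells, their promoters were searched for the core motifs of these factors. RefSeq windows of the build GRCm38.p6, 250 bases before to 50 after the start, were found for 64 of the 77 members. On both strands, CGCATGCG (NRF1) was present in 9 of the 64 (14.1%) and in 559 of all 27025 genes (2.07%). Those 27025 genes were not limited to genes with transcripts in these cells. The motif AAGATGGCG (YY1) was present in 8 (12.5%, against 1.64%), CCGGAAGT (GABPA) in 5 (7.81%, against 4.31%) and TCAAGGTCA (the receptor encoded by Esrra) in 2 (3.12%, against 0.466%). A promoter could hold more than 1 motif, and overlapping matches were kept. A match describes these letters in this window and does not show binding. Stretches from 3 members, on the minus strand and written 5′ to 3′ along the gene, with the motif in capitals, show how it sits before the start. They are Atp5g3 (chr2:73911340-73911408, 52 to 44 bases before the start, the reverse complement of TCAAGGTCA), Atp5l (chr9:44920946-44920992, 241 to 234 bases before) and Uqcr11 (chr10:80406850-80406917, 66 to 59 bases before):
Atp5g3: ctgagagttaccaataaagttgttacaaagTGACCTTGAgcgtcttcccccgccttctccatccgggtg
Atp5l: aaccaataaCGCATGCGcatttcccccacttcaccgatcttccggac
Uqcr11: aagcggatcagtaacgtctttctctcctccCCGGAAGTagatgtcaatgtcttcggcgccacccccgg
Between immature-OSN-like and mature-OSN-like cells these genes rose by 0.76, 0.80 and 0.47 on the log2 scale.

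Some values depend on how reads were assigned. For 15 members the last 500 bases of a transcript match another gene in the tables at 98% identity or more over at least 98 bases. They include Cox5b, Cox7c, Atp5g1, Atp5g2, Atp5l, Ndufb8 and Uqcr11, and their counts are uncertain where the counting split or dropped shared reads.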

How the data were processed

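Single-cell 3' libraries of dissociated (papain) and sorted cells were processed with Cell Ranger 2.1.1 and Seurat against mm10, per the submitters' processing notes; the sources used here name neither the annotation nor a cell filter applied earlier. The deposited values are raw UMI counts per gene and cell, made by the authors, and were used unchanged.

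Cells with under 500 genes, over 10% mitochondrial or over 10% haemoglobin UMIs were removed. A doublet caller marked 25, 34, 7 and 0 cells, too few to have worked. Cells were clustered in scanpy 1.11.5 on counts scaled per cell, without thinning, and named from marker genes. Clustering used 2000 variable genes without members and mitochondrial genes, 30 components and resolution 1.0. The marker gates were applied to cells thinned to 1500 UMIs. Counts summed per library and class were tested with edgeR 4.0.16 (quasi-likelihood, TMM, library as block, Benjamini-Hochberg over all genes). Because the block is the library, classes of 1 library are paired by source. The procedure was tested on simulated data. Age ratios carry exact binomial 95% intervals that cover counting error only. Deposited UMIs ranged from 6861044 to 17770838 per library and median UMIs per cell from 3221 to 4982. Depth also differed within classes. Medians at P0 and P21 were 3526.5 and 8513 in progenitor-like, 3388 and 6469 in immature-OSN-like and 4450 and 3961 in mature-OSN-like cells.

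The members and gene lists were chosen with earlier results of these data known. By rule, the text names in each complex the members with the largest and smallest mature to progenitor difference and P21 to P0 ratio, always Ndufa4, Ndufa4l2, the Sdh genes, Cyc1, Cox4i1, Atp5b and the ring genes Atp5g1 to Atp5g3, and the extremes of each other list; further names were chosen after their values were seen. A member that the rule names is not reported here by name, and it stays in the counts and sums. Alternatives covered DESeq2 1.42.0, filters, cell assignment, depth, scaling and left-out libraries. Promoters came from RefSeq, and transcript lengths and copies from GENCODE M21 (BLAST 2.17.0).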

Additional observations from a re-analysis of the deposited data

How the results depend on the processing

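Each age is 1 library and the number of mice per library is not known, so the p-values between classes measure only the spread between these 4 libraries, and the age ratios have counting error alone. Cluster makeup differed between ages, free RNA was not modelled, and Atp5g2 and Ndufa4l2 had too few UMIs for an age ratio in the neuronal and horizontal-basal-like classes. The summed ratio outside the neuronal lineage, 0.868, was above 1 with P3 (1.02) and P7 (1.04) as the early library; no other result recomputed here changed direction. Of the settings for single members and for counts of members higher at P21, 1190 kept their side of the threshold or their count within 1.5 times, 89 lost the call, 19 gained it and 24 counts moved further. Settings on wider classes, the low-depth cluster, single clusters, shared barcodes, library totals and the ages of horizontal-basal-like cells were chosen after seeing the data. Marker gates gave no value for horizontal-basal-like cells. The causes of the changes below were not tested.

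Between mature and progenitor cells, the 8 lower members were 4 with DESeq2, 4 with no filter on low counts, 4 with no replicate block (classes not paired by library), 3 with marker gates, 4 without the highest doublet scores, 4 in cells with at least 3000 UMIs, 5 with wider classes, 4 without the low-depth cluster and 4 to 5 without 1 library. Between mature and immature cells library totals gave 2 lower in place of 0. Between immature and progenitor cells, the 18 higher members were 11 with no replicate block and the 37 lower were 20 with gates. Between horizontal-basal-like and progenitor cells, the 17 higher members were 11 with DESeq2, 6 with no filter and 10 with no replicate block, and the 20 lower were 13, 34 and 12 in that order, 11 in cells with at least 3000 UMIs and 12 to 20 without 1 library.

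For P21 against P0 in mature-OSN-like cells, the summed ratio of 0.642 became 0.621 with median-of-ratios scaling, 0.791 and 0.903 with P3 and P7 as the early library, 0.689 with gates, 0.665 in cells with at least 3000 UMIs, 0.709 with wider classes, and 0.611, 0.684 and 0.438 in clusters 0, 6 and 16 alone. The 38 lower members (8.94% of all genes) became 60 below a ratio of 0.8 (20.7%), 2 and 0 with P3 and P7 (8.13% each), 24 with gates (9.51%) and 23 with wider classes (9.86%). In immature-OSN-like cells the 9 lower (7.43% of all genes) became 16 with median-of-ratios (11%), 28 below a ratio of 0.8 (19.6%), 0 with P3 (6.6%) and 0 with P7 (8.52%), and the ratio of 0.830 became 0.776, 0.920 with P3, 0.984 with P7 and 0.815 with gates. In progenitor-like cells the 9 lower (8.70%) became 31 below a ratio of 0.8 (21.8%), 0 with P3 (5.95%) and 0 with P7 (9.76%), and the ratio of 0.838 became 0.794 with median-of-ratios, 0.868 without mitochondrial and ribosomal protein genes, 0.958 with P3 and 0.976 with P7. In horizontal-basal-like cells the 19 lower (23.3%) became 42 below a ratio of 0.8 (39.7%), 3 with P3 (19.7%), 1 with P7 (18.2%) and 27 of 68 in cells with at least 3000 UMIs (23.6%), and the ratio of 0.764 became 0.867 with P3, 0.904 with P7 and 0.706 in those deeper cells.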
